A study of Mus musculus with 12 samples.

Results

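The mitochondrial ribosomal proteins studied here are the genes whose platform symbols start with Mrpl (named for the large subunit) or Mrps (named for the small subunit) followed by a digit. The array annotation held 78 such symbols, and 76 of them, 47 Mrpl and 29 Mrps, had a probe set that named only that gene, out of 18194 genes measured in the same way. The remaining symbols, Mrpl30 and Mrpl53, appeared only in probe sets that name several genes and have no value here. Each gene was read from 1 probe set, the one with the highest mean over all 12 arrays, so signal chose the probe set of a gene, and no difference between groups entered the choice of members. The choice of probe set mattered for the 42 members with several probe sets, and 34 members had 1. The prefix does not always give the place of the protein: Mrps18a and Mrps30 are now placed in the large subunit, and Mrps36 is now known as a subunit of the oxoglutarate dehydrogenase complex of the tricarboxylic acid cycle. By place, 49 members belong to the large subunit and 26 to the small one.

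Mitochondria carry their own ribosome, the mitoribosome, which translates the few proteins encoded in mitochondrial DNA, all of them core subunits of the respiratory chain and ATP synthase. Its ribosomal RNAs are transcribed inside the organelle, whereas every one of its proteins is encoded in the nucleus, made on cytosolic ribosomes and imported. Some of these proteins have counterparts in bacterial ribosomes and others are particular to mitochondria. Brown fat and muscle are known for their many mitochondria, and white fat holds fewer.

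Expression was read on 12 Affymetrix arrays that fall into 6 groups, each with arrays lettered a and b. Mice labelled Smad3-/-, made by targeted disruption and kept on a mixed C57BL/6 and NIH Black Swiss background, were given a regular diet (KO_RD) or a high fat diet of 55% fat (KO_HFD), and C57BL/6 wild types were given the regular diet (WT_RD) or the high fat diet (WT_HFD). In a second experiment, mice already obese from the diet (strain label C57J/B6) received an antibody against TGF-beta, 1D11 (ATGF), or the control IgG 13C4 (IgG), by intraperitoneal injection 3 times a week for 8 weeks. Smad3 relays the TGF-beta signal into the nucleus, and the series title asks about protection from obesity and diabetes when this route is blocked. Genotype and strain background cannot be told apart, and the labels give no age, sex or tissue. Nothing in them tells whether arrays a and b are of different animals; the p-values therefore reflect array-to-array spread that could be technical. Values are log2 RMA units, in which a difference of 1 is a doubling. A gene was called higher or lower where limma's test, adjusted by the Benjamini-Hochberg method over all 18194 genes, gave a p under 0.05. The SE of a member's difference between groups lay between 0.0992 and 0.175.

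Several facts of the whole series bear on every comparison below. Smad3 was at 9.10 and 9.17 in KO_RD, against 8.86 and 8.94 in WT_RD, and at 9.14 and 9.03 in KO_HFD, against 8.88 and 8.95 in WT_HFD. It was not called in either comparison (adjusted p from limma 0.117 and 0.409), and the sources used here do not place its probe set inside or outside the disrupted part, so KO_RD and KO_HFD stand for arrays labelled Smad3-/-. The fat-cell hormone gene Adipoq was bright everywhere, between 13.01 and 14.18. Markers of other cells differed strongly between groups. The median of 20 skeletal muscle genes was 10.26 and 10.44 in KO_HFD and 10.49 and 10.51 in ATGF, against 5.50 to 6.80 on the other arrays. The median of 11 genes of epididymis and testis was 12.24 and 11.84 in KO_RD, against 4.94 to 7.16 elsewhere. Single genes of that list were bright on the high fat arrays too: Cuzd1 was at 12.07 and 12.16 in KO_HFD, against 12.99 and 13.08 in WT_HFD. The brown fat gene Ucp1 lay between 11.67 and 12.46 in KO_RD, KO_HFD and ATGF and between 5.42 and 6.44 in WT_RD, WT_HFD and IgG. In bulk samples, fewer cells of a type and less RNA per cell cannot be told apart. Arrays of the separate experiments had different spreads, so levels are compared only within an experiment.

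Mitoribosomal transcripts were lower in KO_RD than in WT_RD and higher in KO_HFD than in WT_HFD and in ATGF than in IgG. The median over the 76 members was 8.45 and 8.28 on the KO_RD arrays, against 8.55 and 8.57 in WT_RD. On the high fat diet the order turned, with 8.63 and 8.70 in KO_HFD, against 8.28 and 8.40 in WT_HFD. In the antibody experiment it was 9.50 and 9.50 in ATGF, against 9.33 and 9.26 in IgG. In none of these pairs did the array medians of the groups overlap, and the KO_RD arrays lay farther apart than those of any other group.

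**Figure D1:**
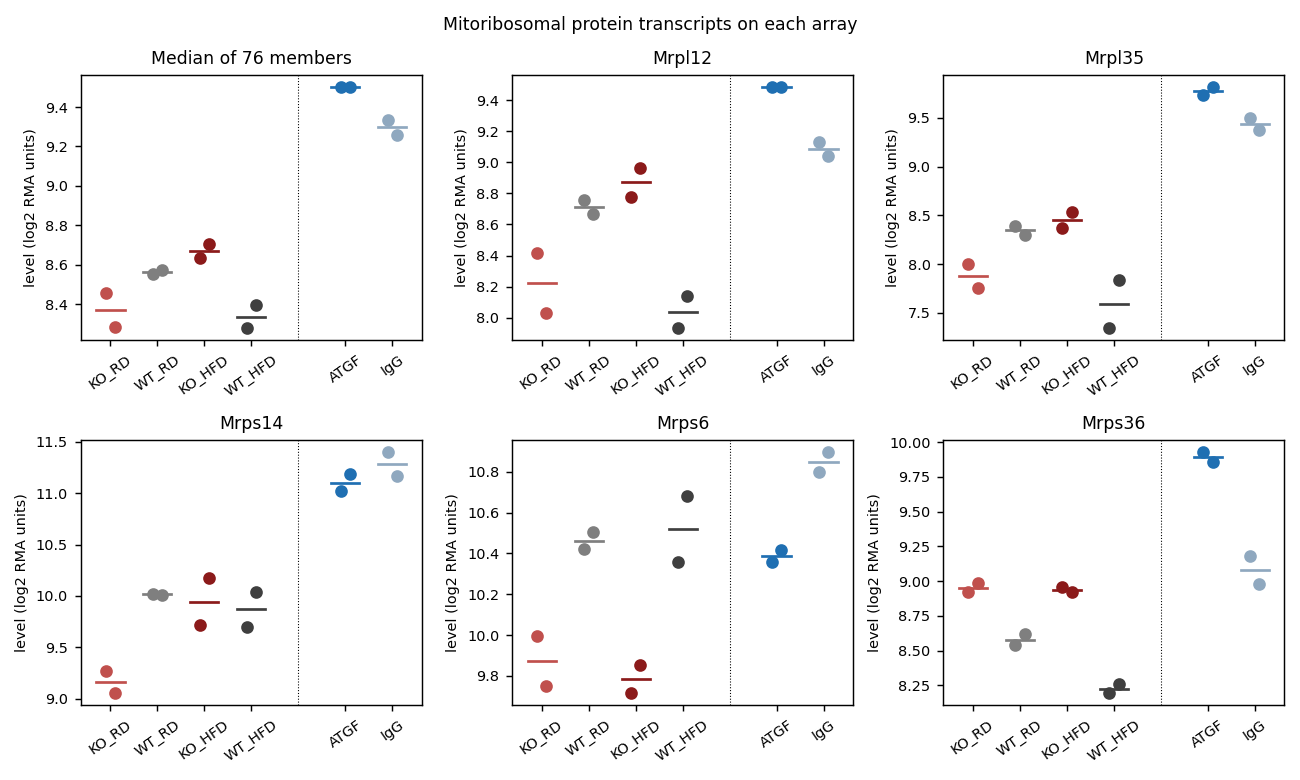
Level (log2 RMA units, vertical axis) on each array for the median of the 76 members and for 5 members, by group along the horizontal axis. Each point is 1 array, each short line the mean of 2, and the dotted line separates the experiments. KO_HFD lies above WT_HFD in the median panel (8.63 and 8.70, against 8.28 and 8.40), whereas KO_RD lies below WT_RD.

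On the regular diet, 29 of the 76 members were lower in KO_RD and 4 were higher, with a median difference of -0.23. Over all genes tested, 15.6% were called lower and 8.4% higher, and the median difference was 0.04. Of the members, 64 had a negative difference and 12 a positive one, and the values of 49 (64.5%) did not overlap between the groups, close to the 59.3% of all genes. By place, the large subunit had 18 lower and 3 higher of 49 (median -0.21), and the small subunit 11 lower and 0 higher of 26 by limma (median -0.31; 0 higher at an unadjusted p under 0.05). These counts lean on single arrays: 9 members were called without KO_RD b and 20 without WT_RD a, against 33 with all arrays. When all 12 arrays were quantile normalized together, the split became 17 lower and 8 higher among the members (7 and 7 of the Mrpl, 10 and 1 of the Mrps), and 2572 lower and 2438 higher among all genes, against 2833 and 1528 as deposited.

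Mrps14, a small subunit protein with a bacterial counterpart, had the lowest difference of all members in this comparison. It was at 9.27 and 9.05 in KO_RD, against 10.02 and 10.01 in WT_RD. Both KO_RD arrays lay well below both WT_RD arrays. The difference was -0.86 (SE 0.13, a 1.81-fold lower signal; adjusted p from limma 9.42e-06), and it passed in every fit that left out 1 array, with 9.88e-04 as the highest adjusted p. Its dimmer probe sets gave -0.17 and -0.09. The other bacterial-type small subunit genes with the smallest p were Mrps6 and Mrps10, at -0.59 and -0.67, and Mrps10 was at 6.50 and 6.40 in KO_RD, against 7.15 and 7.09 in WT_RD. The call of Mrps10 was lost with the mean of its probe sets (-0.27; 0.0715). Mrps25, a small subunit protein particular to mitochondria, was at 7.35 and 6.96 in KO_RD, against 7.89 and 7.62 in WT_RD, a difference of -0.60 (SE 0.13; adjusted p from limma 7.25e-04). Mrpl27, which sits near the site of peptide bond formation in the large subunit, was at 9.34 and 9.00 in KO_RD, against 9.68 and 9.69 in WT_RD. Its difference of -0.52 passed with all arrays (adjusted p from limma 0.00148) and not without KO_RD b. With the mean of its probe sets it was -0.23 and did not pass (0.116), and with quantile normalization -0.245 (0.0604).

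None of the 4 members that were higher in KO_RD has a counterpart in the bacterial ribosome, but this depended on the scaling. With arrays centred on their medians 1 member was higher, and the calls of Mrpl37, Mrpl44 and Mrpl52 were lost. With all 12 arrays quantile normalized together 8 members were higher, 3 of them bacterial-type large subunit genes. Mrps36 was at 8.92 and 8.99 in KO_RD, against 8.54 and 8.62 in WT_RD. Mrpl44, which resembles RNase III enzymes, was at 9.93 and 9.76 in KO_RD, against 9.58 and 9.45 in WT_RD. Mrpl37 was at 8.21 and 8.06 in KO_RD, against 7.72 and 7.86 in WT_RD, and Mrpl52 at 8.21 and 8.51, against 7.75 and 8.13. In each of these the KO_RD arrays lay above the WT_RD arrays without overlap, by 0.33 to 0.42 on the log2 scale. None of the 4 calls held in every fit without 1 array: Mrps36 and Mrpl52 did not pass without KO_RD b or WT_RD a, Mrpl44 without KO_RD a or WT_RD b, and Mrpl37 without KO_RD a or WT_RD a, with highest adjusted p from limma of 0.0817, 0.436, 0.162 and 0.217 in that order.

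On the high fat diet the direction was the opposite: 23 members were higher in KO_HFD than in WT_HFD and 1, Mrps6, was lower, with a median difference of 0.23. Over all genes 4.74% were called higher and 6.05% lower, and the median was -0.01. Of the 76 members, 64 had a positive difference, and 46 (60.5%) did not overlap between the groups, against 48% of all genes. Higher calls came from both subunits by place, 14 of 49 in the large and 8 of 26 in the small one, with medians of 0.27 and 0.17. Without KO_HFD b 8 members were called and without WT_HFD a 11, against 24 with all arrays.

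Mrpl35 and Mrpl12, both of the large subunit, had the largest increases among the members here. Mrpl35, a bacterial-type protein, was at 8.37 and 8.53 in KO_HFD, against 7.35 and 7.83 in WT_HFD. Mrpl12, the counterpart of the bacterial stalk protein that meets translation factors, and known also to bind the mitochondrial RNA polymerase, was at 8.78 and 8.96 in KO_HFD, against 7.93 and 8.14 in WT_HFD. For both genes the groups were clearly apart. The differences were 0.86 (SE 0.13, 1.82-fold; adjusted p from limma 2.07e-05) and 0.83 (SE 0.12, 1.78-fold; 1.12e-05). Each passed in every fit without 1 array and under every other setting tried. Mrpl35 rests on 1 probe set: its dimmer probe sets gave 0.21 and 0.27.

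Mrps16 and Mrps5, small subunit proteins with bacterial counterparts, rose by similar amounts. Mrps16 was at 9.78 and 9.98 in KO_HFD, against 9.09 and 9.34 in WT_HFD, and Mrps5 was at 7.97 and 8.12 in KO_HFD, against 7.30 and 7.50 in WT_HFD. Their differences were 0.67 and 0.65 (adjusted p from limma 1.49e-04 and 2.26e-04). Mrps27, an RNA-binding protein of the small subunit particular to mitochondria, was at 8.04 and 7.94 in KO_HFD, against 7.55 and 7.18 in WT_HFD, a difference of 0.63. These calls passed in every fit without 1 array. With the mean of the probe sets of each gene, Mrps5 was at 0.06 and did not pass (adjusted p from limma 0.83).

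Antibody treatment gave 25 members higher in ATGF than in IgG and 2 lower, Mrps6 and Mrpl54, with a median difference of 0.22. Over all genes 11.7% were called higher and 12.6% lower, and the median was 0.00. The difference was positive for 60 members, and 60 members (78.9%) did not overlap between the groups, against 60.2% of all genes. By place, the large subunit gave 15 higher and 1 lower of 49 (median 0.22), and the small subunit 9 higher and 1 lower of 26 (median 0.22). The number called was 13 without ATGF b, and 16 without ATGF a or without IgG b, against 27 with all arrays. When only the 4 arrays of this experiment were fitted, 42 members were called.

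Mrps35, a small subunit protein particular to mitochondria, rose most. It was at 9.09 and 9.17 in ATGF, against 8.36 and 8.13 in IgG, a difference of 0.89 (SE 0.14, 1.85-fold; adjusted p from limma 1.17e-05). Mrpl47 was at 8.31 and 8.23 in ATGF, against 7.63 and 7.39 in IgG, and Mrpl45, which lies by the tunnel exit where the ribosome meets the inner membrane, was at 8.96 and 8.72 in ATGF, against 8.11 and 8.15 in IgG. These differences were 0.76 and 0.71. Mrps5 was at 8.93 and 8.97 in ATGF, against 8.35 and 8.22 in IgG, a difference of 0.67. The groups did not overlap for any of these genes, and each call passed in every fit without 1 array, with highest adjusted p from limma between 9.61e-04 (Mrps35) and 0.0145 (Mrpl45). With the mean of its probe sets Mrps5 was at 0.25 here and did not pass (0.0533). Mrpl54 was at 8.81 and 9.16 in ATGF, against 9.44 and 9.37 in IgG. Its difference of -0.43 did not pass without ATGF a, IgG a or IgG b.

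Few members went the same way in all 3 of these comparisons, which share no arrays. Mrps6, a small subunit protein with a bacterial counterpart, was lower in all 3. It was at 10.00 and 9.75 in KO_RD, against 10.42 and 10.50 in WT_RD, at 9.71 and 9.86 in KO_HFD, against 10.36 and 10.68 in WT_HFD, and at 10.36 and 10.42 in ATGF, against 10.80 and 10.90 in IgG. In none of the pairs did the groups overlap. The differences were -0.59, -0.73 and -0.46 (adjusted p from limma 1.80e-04, 2.31e-05 and 0.00299), and each passed in every fit without 1 array. With all 12 arrays quantile normalized together the first was -0.22 and did not pass (0.0501). Its second probe set gave -0.57, -0.72 and -0.68. The Mrps6 gene shares its first exon with Slc5a3, a transporter gene, and its probe set is of a kind that may match several transcripts.

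Mrps36 was the counterpart in the other direction. It was at 8.95 and 8.93 in KO_HFD, against 8.19 and 8.26 in WT_HFD, and at 9.93 and 9.86 in ATGF, against 9.18 and 8.98 in IgG, differences of 0.71 and 0.82, after 0.38 in KO_RD against WT_RD. The high fat and antibody calls passed in every fit without 1 array (highest adjusted p from limma 6.69e-04 and 1.52e-04). Mrpl37 was also called higher in all 3, at 0.34, 0.46 and 0.33, and each of these calls was lost without some single array of its groups.

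The members called in KO_HFD against WT_HFD and in ATGF against IgG overlapped. Of the 23 and 25 higher members, 16 were in both, which is 69.6% of the first list and 64% of the second. The overlap of calls over all genes was not counted, so these shares cannot be called particular to the members. By contrast, 6 of the 29 members lower in KO_RD were among the 23 higher in KO_HFD, 20.7% of the first list and 26.1% of the second: Mrpl12, Mrpl35, Mrpl42, Mrps15, Mrps27 and Mrps30. A further 19 were called only lower in KO_RD, and 23 were called in none of the 3 comparisons. Across the 76 members, the log2 differences of KO_HFD against WT_HFD and of ATGF against IgG had a Pearson's r of 0.62 and a Spearman's rho of 0.65, and across all 18194 genes 0.52 and 0.27. The differences of KO_RD against WT_RD had an r of 0.29 with those of KO_HFD against WT_HFD over the members, and -0.01 over all genes. These are descriptions across genes, which are not independent replicates, and the points share arrays within each comparison.

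**Figure D2:**
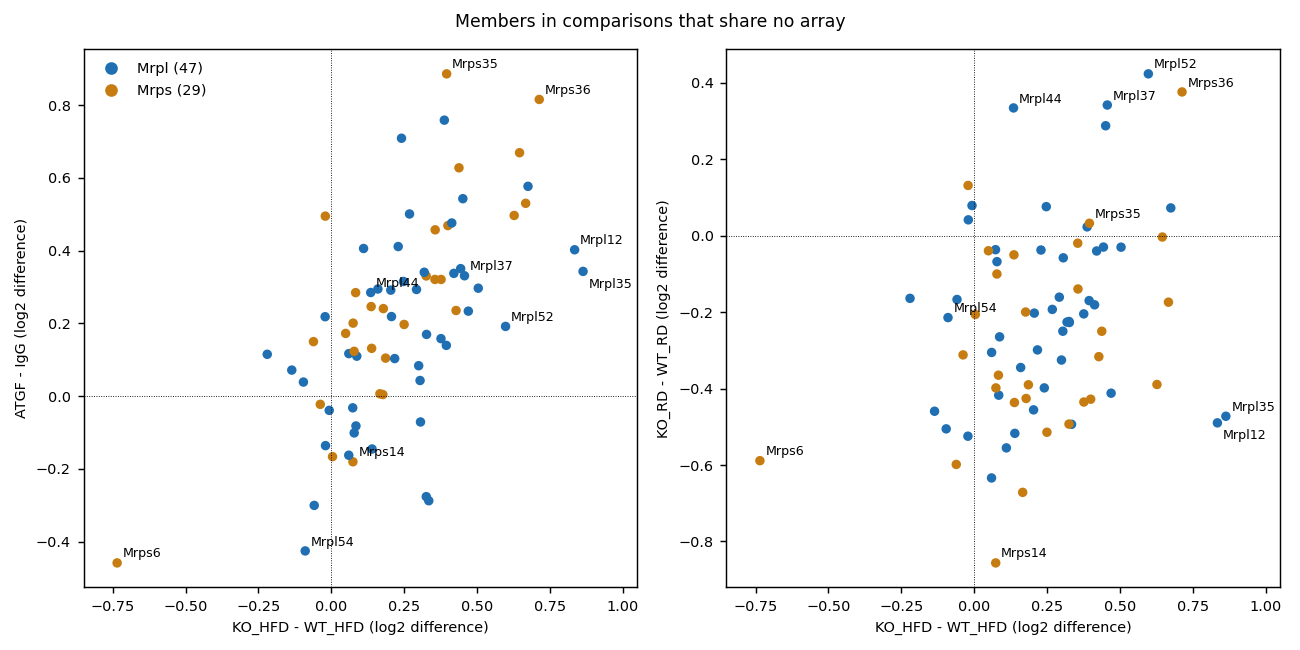
Log2 difference of each of the 76 members in KO_HFD against WT_HFD (horizontal axes) and in ATGF against IgG (left, vertical axis) or KO_RD against WT_RD (right, vertical axis). Each point is 1 gene, 47 Mrpl and 29 Mrps. Mrps36 lies above 0 on every axis and Mrps6 below, and Mrpl12 and Mrpl35 lie below 0 only for KO_RD against WT_RD (-0.49 and -0.47).

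With the diet, the median of the members was lower in wild types and higher in the mice labelled Smad3-/-. These comparisons reuse the arrays of the genotype comparisons and are not independent of them. In wild types, 10 members were lower in WT_HFD than in WT_RD and 1, Mrpl44, was higher, with a median of -0.16, against 6.11% lower and 4.69% higher over all genes. The difference was negative for 62 members. Without WT_HFD a or WT_RD a 4 members were called and without WT_RD b 7, against 11 with all arrays. In the mice labelled Smad3-/-, 34 members were higher in KO_HFD than in KO_RD and 0 lower by limma (0 also at an unadjusted p under 0.05), with a median of 0.32, against 11.5% higher and 5.82% lower over all genes. Here 70 members had a positive difference. Without KO_HFD b, and likewise without KO_RD b, 6 members were called. The call of Mrpl44 in the wild types (0.33, adjusted p from limma 0.032) was lost in each fit that left out one of the arrays compared (0.274 at the highest). Markers of other cells moved with the diet as well. In WT_HFD against WT_RD all 6 smooth muscle genes were lower (median -4.24) and 6 of 11 genes of epididymis and testis were higher (1.89). In KO_HFD against KO_RD all 20 skeletal muscle genes were higher (3.64), as were 9 of 10 white adipocyte genes (1.11), and 9 of 11 genes of epididymis and testis were lower (-3.17). Their part in the diet differences of the members was not tested.

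Of the members lower with diet in the wild types, those with the smallest p were Mrpl35, Mrpl12, Mrps15, Mrps30 and Mrps27. Mrpl35 was at 7.35 and 7.83 in WT_HFD, against 8.39 and 8.30 in WT_RD, and Mrpl12 at 7.93 and 8.14 in WT_HFD, against 8.76 and 8.67 in WT_RD. These differences of -0.76 and -0.68 (adjusted p from limma 1.22e-04 and 1.98e-04) passed in every fit without 1 array, whereas those of Mrps15 (-0.56), Mrps30 (-0.55) and Mrps27 (-0.55) each failed in 1 such fit, without WT_HFD a, WT_RD a and WT_HFD b in that order. With the mean of its probe sets, Mrpl35 was at -0.30 in WT_HFD against WT_RD and did not pass (adjusted p from limma 0.0815). In the mice labelled Smad3-/- the smallest p belonged to Mrps14, at 9.72 and 10.17 in KO_HFD, against 9.27 and 9.05 in KO_RD. Its difference of 0.78 (SE 0.13; adjusted p from limma 5.35e-05) passed in every fit without 1 array, and its KO_HFD values lay on either side of those of WT_RD (10.02 and 10.01). Mrpl12 followed at 0.65, Mrpl35 at 0.58, Mrps16 at 0.51 and Mrps21 at 0.47. The calls of Mrpl12 and Mrps21 passed in every fit without 1 array. That of Mrpl35 did not pass without KO_RD b (0.0581) or with the mean of its probe sets, and that of Mrps16 not without KO_HFD b or KO_RD b (0.0823 at the highest).

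The interaction, the genotype difference on high fat diet minus that on regular diet, tested whether the responses differ. It was positive for 70 of the 76 members and called for 39, all of them positive, with a median of 0.50, against 12% positive and 6.77% negative calls over all genes and a median of -0.02. With all 12 arrays quantile normalized together, 31 members were called positive and 2 negative, and over all genes 2095 and 1747, against 2181 and 1232 as deposited. Both subunits by place took part, with 25 of 49 in the large (median 0.50) and 14 of 26 in the small one (median 0.52). The lists of proteins with bacterial counterparts and of those taken as particular to mitochondria had close medians as well. They were 0.49 and 0.55 in the large subunit and 0.54 and 0.49 in the small one. Mrpl47 was counted as particular to mitochondria, and its placement there was not checked. The count was 17 without KO_HFD b, 20 without KO_RD b or without WT_HFD a, and 22 without WT_RD a.

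Mrpl35 (1.34, SE 0.19), Mrpl12 (1.32, SE 0.17) and Mrps27 (1.02, SE 0.18) had the largest interactions. For Mrpl12, KO_RD was at 8.42 and 8.03 and WT_RD at 8.76 and 8.67, while KO_HFD was at 8.78 and 8.96 and WT_HFD at 7.93 and 8.14. The high and low groups thus changed places with the diet. The adjusted p from limma were 2.69e-06, 9.48e-07 and 7.25e-05, and all 3 passed in every fit without 1 array. Mrps16 (0.84), Mrpl20 (0.83), Mrps14 (0.93) and Mrps10 (0.84) also passed in each of those fits, although Mrps14 did not with the mean of its probe sets (0.34; 0.089). Mrpl35 passed with the mean of its probe sets, at a smaller interaction of 0.58 (adjusted p from limma 0.0106). For Mrps14 and Mrps10 the interaction came mostly from the regular diet, where their differences were -0.86 and -0.67, against 0.07 and 0.17 on the high fat diet.

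**Figure D3:**
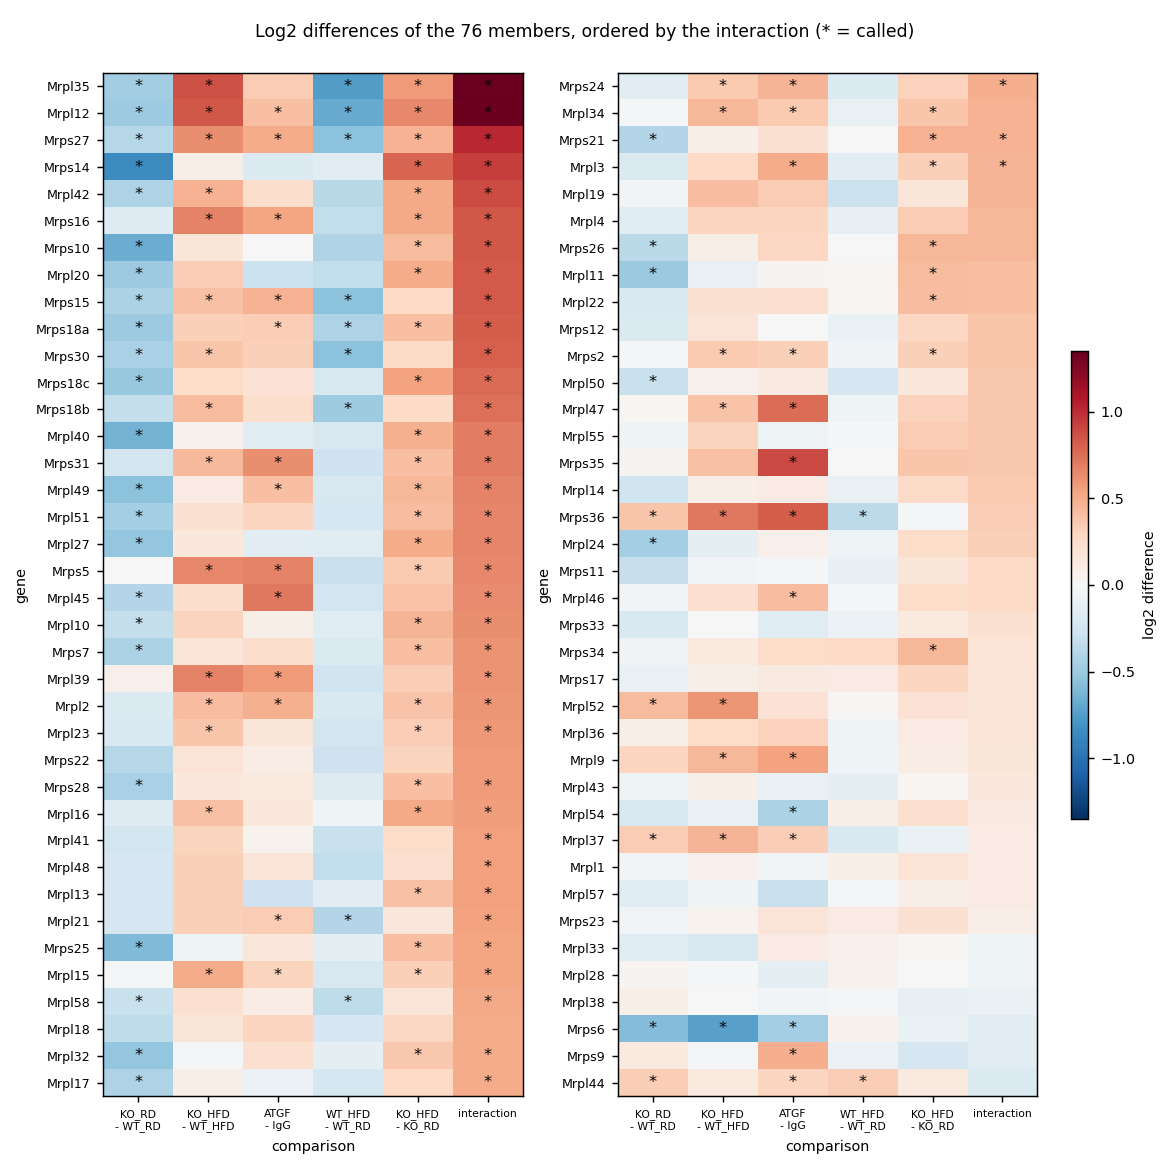
Log2 difference (colour scale) of the 76 members (rows, ordered by the interaction) in the 6 comparisons (columns), with an asterisk where limma's adjusted p was under 0.05. The first column is mostly blue (29 lower, 4 higher), the next columns mostly red (23 and 25 higher), and the interaction column is red for 70 members.

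**Figure D4:**
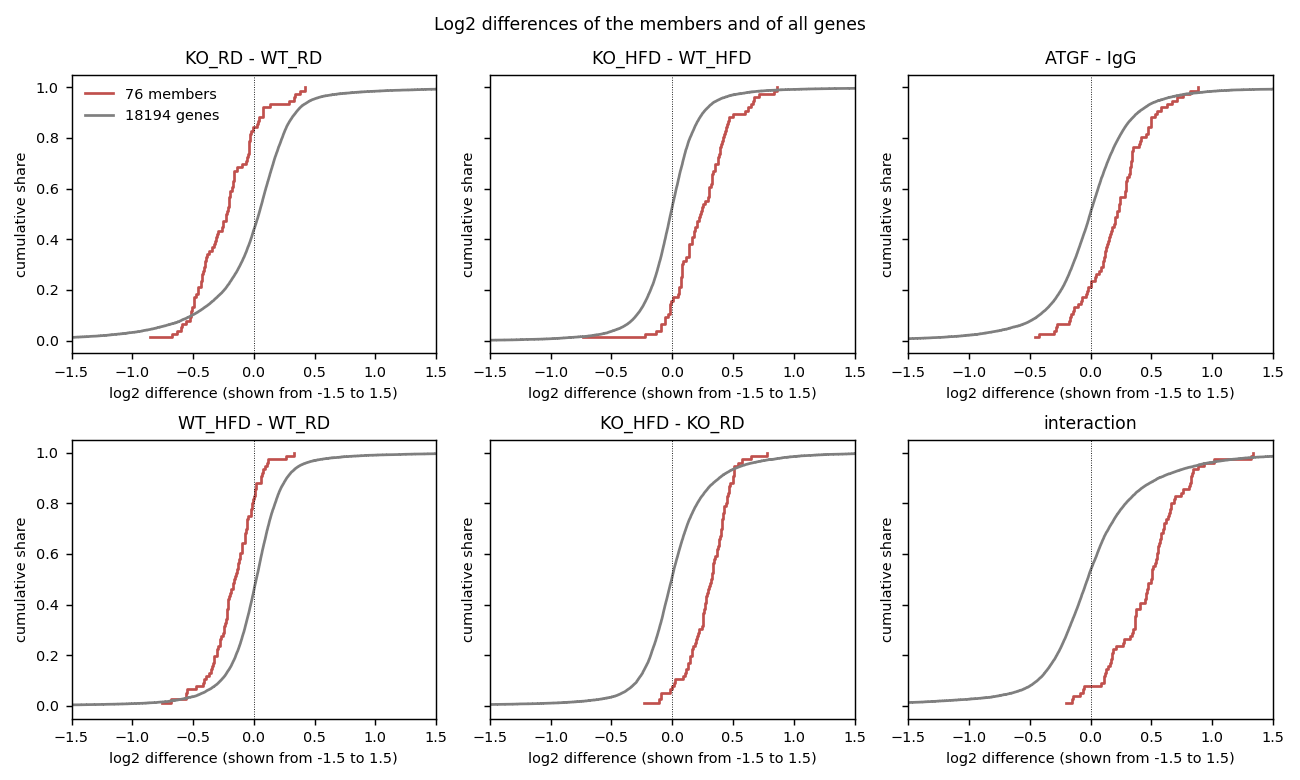
Cumulative share of genes (vertical axis) by log2 difference (horizontal axis, shown from -1.5 to 1.5) for the 76 members and for all 18194 genes in the 6 comparisons. The middle of the members' curve lies to the left of that of all genes in KO_RD against WT_RD and WT_HFD against WT_RD (medians -0.23 and -0.16). In the others it lies to the right.

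Related members of the ribosome can be followed by their place in it. The stalk of the large subunit is formed by copies of Mrpl12 on Mrpl10, beside Mrpl11. Mrpl10 was at 8.55 and 8.72 in KO_RD, against 9.02 and 8.90 in WT_RD, and at 9.06 and 9.12 in KO_HFD, against 8.64 and 8.94 in WT_HFD. Its interaction was 0.62 (adjusted p from limma 0.00404), about as large in every fit without 1 array (0.48 or more). Mrpl11 was lower in KO_RD by 0.51 (adjusted p from limma 0.00285), and its interaction of 0.41 did not pass (0.119). The KO_RD call of Mrpl11 was lost without KO_RD b. It was also lost with the mean of its probe sets (-0.16, adjusted p from limma 0.323) and with quantile normalization (0.0913). In ATGF against IgG, Mrpl12 was called higher (0.40), whereas Mrpl10 and Mrpl11 were at 0.08 and 0.04. The call of Mrpl12 there was lost without ATGF a, ATGF b or IgG b.

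The paralogs Mrps18a, Mrps18b and Mrps18c all had positive interactions, of 0.82, 0.74 and 0.76. Mrps18a was at 8.45 and 8.24 in KO_RD, against 9.00 and 8.68 in WT_RD, and Mrps30 at 8.51 and 8.18, against 8.96 and 8.60. Both were called lower there, at -0.49 and -0.43, and both calls were lost without KO_RD b or WT_RD a. Mrps18c was called lower in KO_RD (-0.51) and Mrps18b was not (-0.32, adjusted p from limma 0.077), and the Mrps18c call was lost without KO_RD b or WT_RD b (0.156 at the highest). The interactions of Mrps18a, Mrps18b and Mrps30 passed in every fit without 1 array, and that of Mrps18c did not pass without KO_HFD b, KO_RD b or WT_HFD a. Mrps12, a small subunit protein at the decoding centre, was among 18 members called in no comparison, with differences between -0.20 and 0.28 and an interaction of 0.38 (adjusted p from limma 0.227). Mrpl41, particular to mitochondria, was called for the interaction alone, at 0.55 (0.0107).

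Mrpl33 and Mrps11 had low signals on the diet and genotype arrays (5.16 to 5.54 and 5.56 to 6.27) and Mrpl1 on all arrays (6.20 to 6.85), and none of these 3 was called in any comparison. Mrpl20 and Mrpl51 had bright signals. Mrpl51 was at 10.03 and 9.77 in KO_RD, against 10.44 and 10.27 in WT_RD, with an interaction of 0.66. With the mean of its probe sets that interaction was 0.18 and did not pass (adjusted p from limma 0.383). The KO_RD difference was then -0.09 (0.528). With all 12 arrays quantile normalized together, the interaction of Mrpl51 was 0.32 and did not pass (0.132). Mrpl20 was at 9.86 and 9.61 in KO_RD, against 10.19 and 10.27 in WT_RD, and at 10.12 and 10.35 in KO_HFD, against 9.75 and 10.05 in WT_HFD. In the antibody experiment Mrpl20 was at 10.66 and 10.67 in ATGF, against 11.04 and 10.86 in IgG, a difference of -0.29 that did not pass (adjusted p from limma 0.073).

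RefSeq (GRCm38.p6) gave a window from 250 bases before to 50 after the gene start for 67 of the 76 members and for 14368 of the genes on the array. The windows were searched on both strands for the core letters of 3 factors known to control mitochondrial genes, and for the TATA box. Of the members, 3 had several windows, and a gene was counted where any of its windows matched. CCGGAAG, the ETS core that GABP (NRF2) binds, was in the windows of 25 members, 37.3%, against 15.02% of all genes. AAGATGGC, the core of YY1 sites, was in 12 members, 17.9%, against 4.09%, and GCGCATGC, the NRF1 core, in 8 members, 11.9%, against 4.70%. TATAAA was in 5 members, 7.46%, against 11.5% of all genes. The median GC content was 58% in the members and 58.7% in all genes. Among the 36 members with a window that were called for the interaction, 13 had the ETS core and 8 the YY1 core, and among the 31 that were not, 12 and 4. A match describes the letters in the window and is not a measured site.

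The windows of 4 members that were called for the interaction and hold such cores are shown, on the strand of the gene and with matches in capitals (CTTCCGG is the ETS core on the opposite strand). Positions count from 0 at the start base. In Mrps27 (chr13:99344536-99344835, plus strand) the ETS core begins at -48 and the YY1 core at 14. In Mrps18a (chr17:46110754-46111053, plus strand) they begin at -26 and 11. Mrps16 (chr14:20393441-20393740, minus strand) has ETS cores at -74 and 24, and Mrpl35 (chr6:71823735-71824034, minus strand) has a YY1 core at 23. Another window of Mrps16 (chr14:20393585-20393884, minus strand) held no such core and is not shown. No motif overlaps another in these windows. The window of Mrpl12 held none of the 4.
Mrps27: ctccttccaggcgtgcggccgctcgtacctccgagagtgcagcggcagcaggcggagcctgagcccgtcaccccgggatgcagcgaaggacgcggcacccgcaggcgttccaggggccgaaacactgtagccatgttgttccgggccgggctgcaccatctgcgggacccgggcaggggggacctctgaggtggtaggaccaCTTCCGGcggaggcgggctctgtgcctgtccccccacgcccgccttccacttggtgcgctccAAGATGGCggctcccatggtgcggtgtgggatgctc
Mrps18a: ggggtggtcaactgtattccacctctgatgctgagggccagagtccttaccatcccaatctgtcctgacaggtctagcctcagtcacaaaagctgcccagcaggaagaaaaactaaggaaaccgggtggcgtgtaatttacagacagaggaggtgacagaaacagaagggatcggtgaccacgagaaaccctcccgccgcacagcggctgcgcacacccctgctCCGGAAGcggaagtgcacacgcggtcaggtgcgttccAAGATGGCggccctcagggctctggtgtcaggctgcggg
Mrps16: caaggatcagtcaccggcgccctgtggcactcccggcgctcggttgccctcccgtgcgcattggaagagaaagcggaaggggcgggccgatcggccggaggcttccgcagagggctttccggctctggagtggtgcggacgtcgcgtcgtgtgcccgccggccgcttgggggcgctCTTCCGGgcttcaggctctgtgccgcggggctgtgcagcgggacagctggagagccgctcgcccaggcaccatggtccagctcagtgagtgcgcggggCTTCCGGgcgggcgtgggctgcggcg
Mrpl35: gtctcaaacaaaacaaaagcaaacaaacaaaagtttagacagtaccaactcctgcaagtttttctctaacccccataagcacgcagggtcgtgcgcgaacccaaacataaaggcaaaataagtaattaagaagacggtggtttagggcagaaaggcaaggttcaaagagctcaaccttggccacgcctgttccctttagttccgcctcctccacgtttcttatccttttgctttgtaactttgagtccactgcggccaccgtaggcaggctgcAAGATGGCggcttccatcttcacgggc

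The transcripts of these factors were also on the array. Nrf1 and Gabpa, which encode NRF1 and the DNA-binding chain of GABP, were called in none of the 6 comparisons, with differences between groups from -0.05 to 0.26 and from -0.31 to 0.33. Yy1 was lower in ATGF than in IgG (-0.30, adjusted p from limma 0.0435) and called in no other. That call was lost with arrays centred on their medians (0.057), with quantile normalization (0.0855) and without ATGF a, ATGF b or IgG a. The coactivator genes differed more. Ppargc1b was higher in KO_RD against WT_RD, in KO_HFD against WT_HFD and in ATGF against IgG by 1.38, 1.40 and 1.48. Ppargc1a was higher in KO_HFD against WT_HFD and in ATGF against IgG by 0.48 and 1.67, and at 0.16 without passing in KO_RD against WT_RD. Its call on the high fat diet was lost without KO_HFD a, KO_HFD b or WT_HFD a. Pprc1, a further member of this coactivator family, was lower in KO_RD by 0.75, and of these 3 genes it alone was called for the interaction (0.87).

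The nuclear subunits of the respiratory chain and ATP synthase, whose partners the mitoribosome makes, had medians of the same sign as the members in 5 of 6 comparisons. Of 90, 69 were higher in KO_HFD against WT_HFD (median 0.63), and 67 in ATGF against IgG (median 0.47). In KO_RD against WT_RD, 15 were higher and 6 lower, with a median of 0.02, beside the -0.23 of the mitoribosomal proteins. That median was -0.04 with arrays centred on their medians and 0.21 with all arrays quantile normalized together, where 45 were higher and 5 lower. With diet, 32 were lower and 2 higher in WT_HFD (median -0.26) and 46 higher in KO_HFD against KO_RD (median 0.36). Cytosolic ribosomal proteins, which make up the other ribosome of the cell, had medians of the opposite sign to the mitoribosomal proteins in 5 of 6 comparisons. In KO_RD against WT_RD 11 of 46 were higher and 3 lower (median 0.19), in KO_HFD against WT_HFD 1 was higher and 4 lower (-0.11), and in ATGF against IgG 4 were higher (0.07). For the interaction 10 were called negative (-0.30). The shares of all genes called are 8.4% and 15.6%, 4.74% and 6.05%, and 11.7% and 12.6% higher and lower in the first 3 comparisons, so the calls of cytosolic ribosomal proteins on the high fat diet (2.17% higher, 8.7% lower) and with the antibody (8.7% higher) lay near or below that background. The signs of the medians held with arrays centred on their medians and with all arrays quantile normalized together, but the counts did not. In KO_RD against WT_RD they were 5 higher and 4 lower with centring and 32 and 2 with quantile normalization, in KO_HFD against WT_HFD 4 and 11 lower, in ATGF against IgG 3 and 8 higher, and for the interaction 3 and 29 negative.

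**Figure D5:**
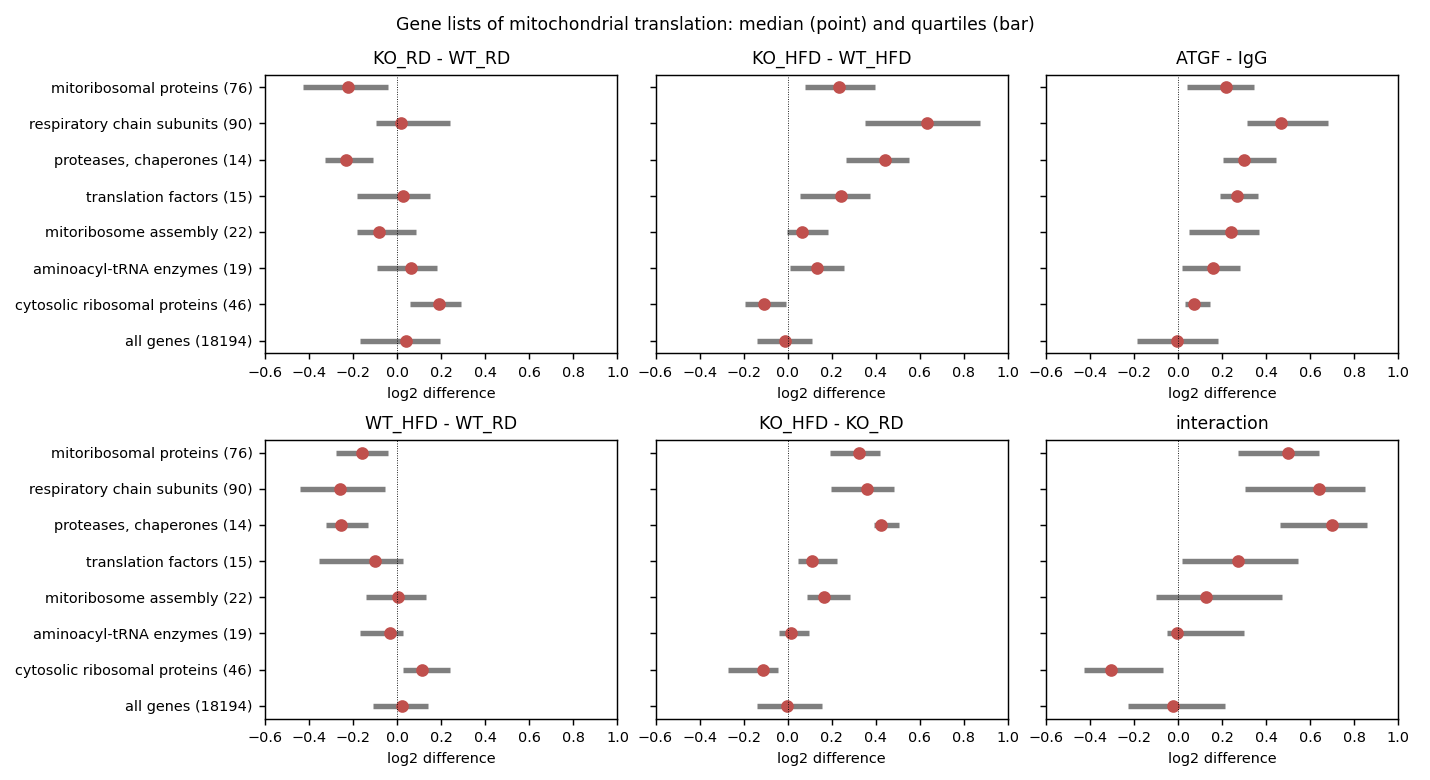
Median (point) and quartiles (bar) of the log2 differences (horizontal axis) of 7 gene lists and of all genes in the 6 comparisons, with the number of genes in parentheses. In KO_RD against WT_RD the mitoribosomal proteins lie below 0 (median -0.23) while respiratory chain subunits centre on 0.02. In KO_HFD against WT_HFD and ATGF against IgG both lie above 0.

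Other genes that serve mitochondrial translation were followed from lists by role. Of 14 proteases and chaperones that mature imported and newly made mitochondrial proteins, 4 were lower and 1 higher in KO_RD against WT_RD (median -0.23), 9 were higher in KO_HFD against WT_HFD (0.44), 7 in ATGF against IgG (0.30) and 10 had a positive interaction (0.70). Over all genes, 15.6% were called lower and 8.4% higher in KO_RD against WT_RD. In KO_HFD against WT_HFD 4.74% were called higher, in ATGF against IgG 11.7%, and 12% had a positive interaction. Hspd1, the matrix chaperonin, was at 11.59 and 11.27 in KO_RD, against 11.66 and 11.70 in WT_RD, and at 11.80 and 11.90 in KO_HFD, against 11.10 and 11.27 in WT_HFD. Its interaction was 0.92, that of the chaperone Hspa9 was 1.15, and that of Trap1 was 0.95. Pmpca and Pmpcb, which together form the peptidase that removes import signals, were lower in KO_RD by 0.45 and 0.52, and both calls were lost without KO_RD b. That of Pmpca was also lost with the mean of its probe sets. The protease Clpp had the smallest p of this list in ATGF against IgG, at 0.82.

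Of 15 translation factors, 1 was higher and 1 lower in KO_RD against WT_RD, 3 were higher in KO_HFD against WT_HFD and 3 in ATGF against IgG. Over all genes, 8.4% were called higher and 15.6% lower in KO_RD against WT_RD, and 4.74% higher in KO_HFD against WT_HFD. Tufm, the elongation factor that brings tRNAs to the ribosome, was higher in KO_HFD against WT_HFD by 0.77, and Gfm1, which moves the ribosome along the message, by 0.50. Gfm1 was lower in KO_RD by 0.33 and its interaction was 0.84. Of 22 assembly and rRNA modification factors, 3 (13.6%, against 15.6% of all genes) were lower in KO_RD (Malsu1, Mtg1 and Mpv17l2, by 0.48, 0.42 and 0.44), 1 was higher in KO_HFD against WT_HFD (C1qbp, 0.56), and 6 were higher and 1 lower in ATGF against IgG, led by the helicase Ddx28 at 0.73. Of 19 mitochondrial aminoacyl-tRNA enzymes, which load tRNAs, 0 were called by limma in KO_RD against WT_RD or KO_HFD against WT_HFD (0 and 4 at an unadjusted p under 0.05), and 4 were higher in ATGF against IgG. Of 11 genes for transcription and upkeep of mitochondrial DNA, 6 were higher in ATGF against IgG (median 0.42). Polrmt, the mitochondrial RNA polymerase, was higher in KO_HFD against WT_HFD by 0.80 and in ATGF against IgG by 0.42. Over all genes 11.7% were called higher in ATGF against IgG. With all 12 arrays quantile normalized together, higher calls there fell to 2 of these 11 genes, 1 aminoacyl-tRNA enzyme, 3 assembly factors and 2 translation factors. Over all genes they fell from 2135 to 1575. Of 4 measured mitoribosomal proteins under other names, Dap3 was lower in KO_RD (0.32 below WT_RD) and Ptcd3 higher in KO_HFD (0.48 above WT_HFD). Of these calls in KO_RD against WT_RD, that of Gfm1 was lost without KO_RD b, WT_RD b or any array of the antibody experiment, Mtg1 without KO_RD b or WT_RD a, and Mpv17l2 and Dap3 without KO_RD b, WT_RD a or WT_RD b. On the high fat diet Gfm1 was lost without KO_HFD b or WT_HFD a and Ptcd3 without KO_HFD a or WT_HFD a, and with the antibody Polrmt was lost without ATGF b.

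Markers of other cell types moved along with these comparisons. All 20 skeletal muscle genes were higher in KO_HFD against WT_HFD and in ATGF against IgG (medians 4.12 and 5.22), where mitoribosomal proteins were higher too. In KO_RD against WT_RD, where mitoribosomal proteins were lower, 12 skeletal muscle genes were higher and 4 lower (median 0.49). Ckm, the muscle creatine kinase, was at 11.90 and 11.99 in KO_HFD, against 6.55 and 6.09 in WT_HFD, and at 11.95 and 11.94 in ATGF, against 6.33 and 6.52 in IgG. Of 12 brown fat genes, 8 were higher in KO_RD against WT_RD, 8 in KO_HFD against WT_HFD and 11 in ATGF against IgG, which includes the comparison where mitoribosomal proteins were lower. On the high fat diet 6 of 11 genes of epididymis and testis were lower in KO_HFD (median -0.92), and 5 of 6 smooth muscle genes were higher in KO_HFD (0.99) and in ATGF (0.79). In KO_RD against WT_RD, 10 of 11 genes of epididymis and testis were higher (median 6.11), led by Lcn5 at 14.01 and 14.04 in KO_RD, against 5.05 and 5.22 in WT_RD. There 9 of 10 white adipocyte genes, 9 of 13 macrophage genes and all 6 smooth muscle genes were lower, and Adipoq was at 13.12 and 13.01 in KO_RD, against 13.91 and 14.00 in WT_RD. Macrophage genes were lower in KO_HFD against WT_HFD (10 of 13) and in ATGF against IgG (12 of 13, Cd68 at 9.13 and 9.15 in ATGF, against 11.15 and 11.07 in IgG), and all 5 hepatocyte genes were lower in ATGF. The signal of the Gapdh control toward the 3′ end over the 5′ end, a sign of RNA breakdown where it is high, was 0.28 and 0.41 in KO_RD, against 0.12 and 0.14 in WT_RD, and 0.39 and 0.37 in KO_HFD, against 0.36 and 0.50 in WT_HFD, on the log2 scale. In ATGF it was 0.09 and 0.14, against 0.02 and 0.10 in IgG. The same measure of the beta-actin control was 0.96 and 1.12 in KO_RD, against 0.80 and 0.77 in WT_RD. It was 0.90 and 0.99 in KO_HFD, against 0.99 and 0.96 in WT_HFD. For ATGF it was 0.87 and 0.75, against 0.61 and 0.67 in IgG, without overlap. The part of these cells and of RNA quality in the differences of the mitoribosomal proteins was not tested.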

How the data were processed

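Per the labels' protocols, 6 ug of total RNA, extracted with Trizol, went onto an Affymetrix array for each of the 12 samples. The authors deposited log2 values, 1 per probe set, made with RMA in Partek per the submitters' processing notes. The sources used here give no versions. RMA normalizes arrays together, so a large change in cell makeup can shift other genes. The experiments may have been normalized separately, and only arrays of the same experiment were compared. No detection calls were used, and the number of arrays limits the precision.

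Of 45101 probe sets, 34958 named a single gene, 932 more than 1 and 9211 no gene. Each of 18194 genes was read from its brightest probe set by mean over 12 arrays, and 18032 matched the RefSeq gene table. Group means of all 12 arrays were fitted with limma 3.58.1 in R 4.3.3 (lmFit, contrasts, eBayes with an intensity trend, 6 residual and 20.37 prior degrees of freedom), with two-sided p-values adjusted by the Benjamini-Hochberg method across all genes. The fit was tested on simulated data. Members, gene lists and tests were chosen with earlier results of these data known. Members were named by a rule: up to 5 with the smallest p in each direction of a comparison, the highest and lowest difference, 11 preset members and the 3 brightest and 3 dimmest. Mrpl42, Cuzd1 and members listed by the pattern of their calls were named after their values were seen. Up to 3 called genes per list were named for the lists on mitochondrial translation, and Nrf1, Gabpa, Yy1 and the coactivators beside the motifs they bear on after their values were seen. Alternatives were other eBayes and normalization settings, other probe set choices, a filter on dim genes, a replicate block and leaving out each array. A group left with 1 array was assumed to vary like the other groups. Replicate letters do not pair arrays in the labels.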

Additional observations from a re-analysis of the deposited data

Results flagged for a closer look

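For mitoribosomal proteins, the difference between arrays labelled Smad3-/- and wild type was not the same on the 2 diets. The interaction test in limma called 39 of 76 members. Genotype and strain background cannot be told apart here. Every called member was more positive on the high fat diet, and the interactions below are log2 differences.

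The named members under large subunit names with such a difference were Mrpl35 (1.34), Mrpl12 (1.32), Mrpl20 (0.83), Mrpl51 (0.66), Mrpl27 (0.66), Mrpl45 (0.64), Mrpl10 (0.62) and Mrpl41 (0.55). Those under small subunit names were Mrps27 (1.02), Mrps14 (0.93), Mrps16 (0.84), Mrps10 (0.84), Mrps15 (0.83), Mrps18a (0.82), Mrps30 (0.81), Mrps18c (0.76), Mrps18b (0.74), Mrps5 (0.65), Mrps25 (0.54) and Mrps21 (0.47). The calls of Mrpl27, Mrpl41, Mrpl45, Mrpl51, Mrps18c, Mrps21 and Mrps25 were each lost in at least 1 fit that left out an array, and those of the other 13 were not. Skeletal muscle genes (20 of 20, median 3.51), smooth muscle genes (6 of 6, median 4.33) and white adipocyte genes (9 of 10, median 1.57) had positive interactions as well, and genes of epididymis and testis negative ones (11 of 11, median -6.07). Their part in the interaction of the members was not tested.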

How the results depend on the processing

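No call of a named member and no median of the members was reversed in direction under any alternative with 1 value per gene. Other genes were not checked for this. Most counts of called members stayed within 1.5 times those reported. The exceptions among fits of all arrays were averaging all probe sets of a gene, with 12 members called in KO_HFD against WT_HFD, 18 in KO_HFD against KO_RD and 24 for the interaction; the fit of the arrays of 1 experiment only, with 42 in ATGF against IgG; and eBayes without the intensity trend, with 7 in WT_HFD against WT_RD. Leaving out 1 array at a time gave 9 to 35 called members in KO_RD against WT_RD, 8 to 27 in KO_HFD against WT_HFD, 13 to 29 in ATGF against IgG, 4 to 15 in WT_HFD against WT_RD, 6 to 36 in KO_HFD against KO_RD and 17 to 46 for the interaction. The medians of the members kept their signs in these fits but moved, with ranges in the same order of -0.35 to -0.16, 0.14 to 0.33, 0.18 to 0.26, -0.23 to -0.08, 0.22 to 0.43 and 0.36 to 0.59. Quantile normalization gave a median of -0.11 in KO_RD against WT_RD and 0.37 for the interaction, and averaging probe sets gave -0.15 and 0.34 there and 0.25 in KO_HFD against KO_RD. Of 95 calls of named members, 37 passed in every fit without 1 array and 29 under every setting. With the replicate letter as a replicate block, 32, 22, 27, 12, 32 and 39 members were called in the order above; deviations of arrays with the same letter had correlations between -0.161 and 0.169, so the letters are not treated as pairs. The cause of these changes was not tested. A filter on dim genes kept 73 members. When every probe set was tested on its own, an alternative chosen after seeing the data, 0 members had probe sets called in opposite directions. Dim members (Mrpl33, Mrps11) and small differences are limited by signal and by 2 arrays a group.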
